A study of Mus musculus with 10 samples.

Results

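Microglia and macrophages of the brain were followed through 38 of their genes, picked by name from the 54532 genes of the count table. The names form 3 sets, with 8 microglia genes (P2ry12, P2ry13, Gpr34, Cx3cr1, Tmem119, Siglech, Fcrls and Olfml3), 25 general myeloid genes that microglia share with other macrophages, and 5 genes of border macrophages (Mrc1, Cd163, Lyve1, Pf4 and Cd74). The rule uses the names alone, which were chosen with earlier results of these data known. Microglia are the resident macrophages of the brain tissue. They are seeded from the yolk sac in the embryo, are maintained by signalling through the receptor Csf1r, and in the undisturbed brain express a set of surface receptors, P2ry12, Tmem119 and Cx3cr1 among them. Border macrophages lie in the meninges, the choroid plexus and the spaces around vessels, express little P2ry12 or Tmem119, share Cx3cr1 with microglia to a varying degree, and carry scavenger receptors such as Mrc1 and Lyve1.

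All 10 mice were homozygous (HO) knockouts of Slc20a2, which encodes a phosphate transporter whose loss leads to brain calcification. They carried the Slc20a2 tm1a(EUCOMM)Wtsi allele in the germline and came from crosses of heterozygotes. From the age of 1.5 months, 6 mice received FTY720, a sphingosine-1-phosphate receptor modulator that holds lymphocytes in lymph nodes, at 0.5 mg/kg in dimethyl sulfoxide, and 4 mice received the solvent alone as placebo, in both cases by intraperitoneal injection 3 times a week for 12 weeks. The mice were perfused, and RNA from a part of each brain was sequenced while the rest was fixed, so that 1 library stands for 1 mouse and holds the RNA of all cell types together. No wild type library was analysed here.

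The mouse names put an F (FTY720) or a P (placebo) before a digit, 1 or 3, whose meaning the sources used here do not give. Of the FTY720 mice, 3 had the digit 1 (F1-622, F1-624 and F1-918) and 3 the digit 3 (F3-609, F3-612 and F3-908). Of the placebo mice, 1 had the digit 1 (P1-623) and 3 the digit 3 (P3-612, P3-904 and P3-907). The comparisons were FTY720 against placebo, which asks whether the treatment moved these genes in calcifying brains, and digit 3 against digit 1, which asks how far another known difference between the libraries moved them. Counts per mouse lay between 14772745 and 18303981. A list of 13 cerebellar genes summed to 168 to 184 CPM (counts scaled to the library size, with TMM) in the digit 1 mice and 1520 to 1620 CPM in the digit 3 mice, and a list of 12 forebrain genes to 724 to 755 CPM and 474 to 601 CPM. Slc20a2 itself was at 6.31 to 14.8 CPM with FTY720 and 9.43 to 17.0 CPM with placebo, with 6.31 to 9.43 CPM in the digit 1 mice and 11.5 to 17.0 CPM in the digit 3 mice, so that the digits did not overlap while the treatment groups did. This is a whole-gene count that does not separate the exons and has no wild type reference here.

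The labelled tissue was brain, and the defining microglia genes were present in every library. P2ry12 had 415 to 661 counts per mouse, Tmem119 144 to 405 and Cx3cr1 663 to 898. All 38 genes passed the filter on low counts. Together they took between 0.0535% (F3-609) and 0.1002% (F1-622) of the counts of a mouse. Genes of cells that could enter from blood were scarce. Of 11 monocyte and neutrophil genes and 13 T and B cell genes, 3 of each list passed the filter on low counts, and the T and B cell list summed to between 7.42 and 11.5 CPM in a mouse. The monocyte and neutrophil list summed to 36.1 CPM in F1-622, 12.9 in P3-612 and 2.04 to 5.25 CPM in the other 8 mice. In F1-622 most of that sum was S100a8 (11.3 CPM), S100a9 (12.2 CPM) and Ngp (6.24 CPM), granule and cytosolic proteins of neutrophils that were named after their values were seen.

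Per length of transcript, as FPKM (fragments scaled to gene length and library size), the highest levels belonged to general myeloid genes, and 4 of the 5 border macrophage genes were at 1.19 or below. Ctss, which encodes the lysosomal protease cathepsin S, had a median over the 10 mice of 57.1 FPKM, and the complement chains C1qa, C1qb and C1qc had 43.7, 40.9 and 18.6 FPKM. Csf1r followed at 16.2 FPKM and Tyrobp, the signalling adaptor of Trem2, at 15.6 FPKM. The ranges of C1qa (18.1 to 71.3 FPKM) and C1qb (23.4 to 78.3 FPKM) overlapped over most of their length, so their order was not separated by the spread between mice.

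Among the microglia genes the median level fell from P2ry12 (12.3 FPKM) through Cx3cr1 (9.64), Fcrls (9.13), Tmem119 (8.22), Gpr34 (5.81), Siglech (4.27) and P2ry13 (3.50) to Olfml3 (2.60). Neighbours in that order overlapped in range, whereas the 9.59 to 15.4 FPKM of P2ry12 lay above the 5.07 to 7.95 FPKM of Gpr34. The border genes had 5.01 FPKM for Cd74, 1.19 for Pf4, 0.903 for Mrc1, 0.598 for Cd163 and 0.312 for Lyve1. Cd74, the invariant chain of antigen presentation, was thus the border gene with the highest level per length, and it is also made by other antigen-presenting cells. Counting error weighs on the low ones, since Pf4 had 3 to 25 counts per mouse, Lyve1 10 to 31 and Cd163 32 to 74. Ptprc, which encodes the leukocyte antigen CD45, had 0.301 FPKM, a value that depends on the 18313 bases counted for this gene.

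**Figure D1:**
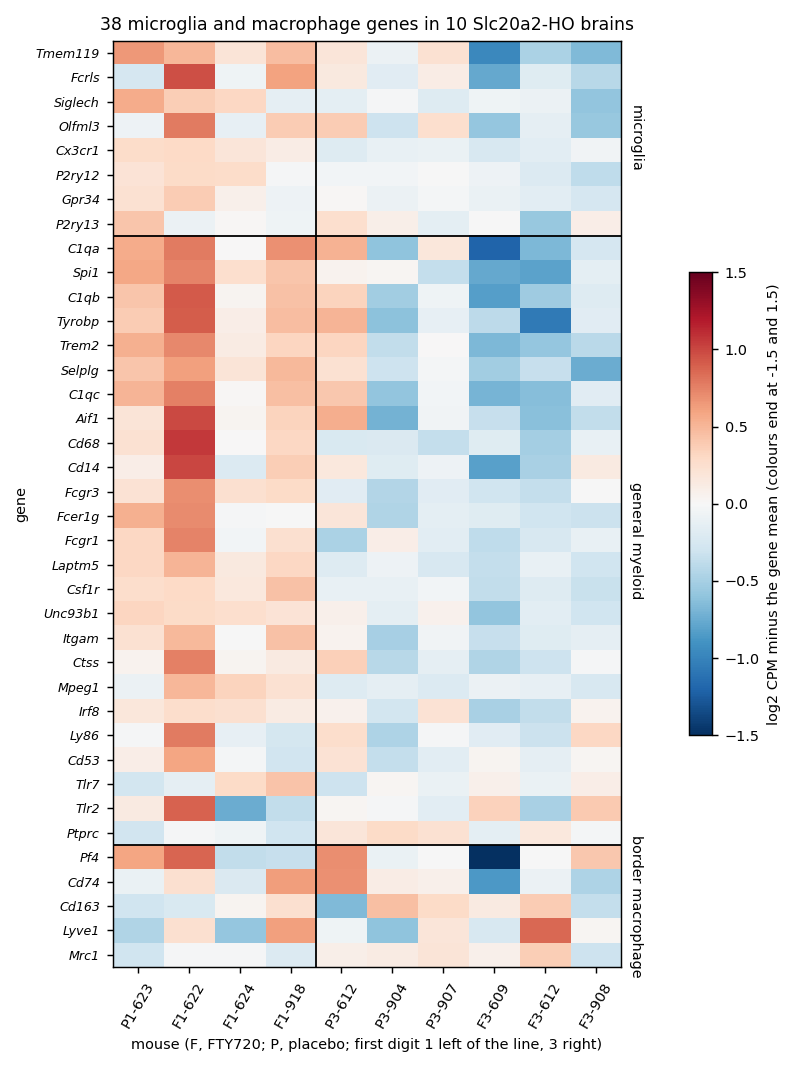
Log2 CPM of the 38 genes (rows, in the sets microglia, general myeloid and border macrophage, ordered within each by the digit difference) in the 10 mice (columns, digit 1 left of the vertical line), as the difference from the mean of each gene over the mice. Red is above and blue below that mean, and F1-622 was the highest mouse in 27 of the 38 rows.

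In a model with treatment alone, no difference between FTY720 and placebo mice beyond the spread between mice was found in these genes. This model leaves out the digit, which was split unevenly (3 of 6 FTY720 mice but 1 of 4 placebo mice had the digit 1). With the digit as a covariate 3 members were lower at an unadjusted p under 0.05, near the 7.79% of all genes, with Tmem119 going from -0.32 to -0.62. In the digit 3 mice alone 7 were lower, where 4.49% of all genes were, and 0 members passed after adjustment in either fit. Tmem119 was at -0.17 with treatment alone in the model once library trends on GC content and length were taken out. In the model with treatment alone, at an unadjusted p under 0.05 (quasi-likelihood test of edgeR over 17665 genes), the p threshold of the study, applied here to genes of every biotype, 0 of the 38 were called, while 2.61% of all genes tested were (1.04% higher and 1.57% lower with FTY720). After Benjamini-Hochberg adjustment 0 of the 38 and 0 of all genes had an adjusted p under 0.05, the smallest over all genes being 0.999918. The Wald test of DESeq2 and limma on log2(FPKM + 0.1) and log2(FPKM + 1) also called 0 members, with 550, 511 and 523 of all genes at an unadjusted p under 0.05 and 0 after adjustment. The fitted difference was below 0 for 18 members and above 0 for 20, with a median log2 fold change of 0.0044 against -0.0030 for all genes, of which 50.6% were below 0 and 49.4% above. In 0 of 38 members were the FTY720 and placebo values free of overlap, which 0.804% of all genes were (0.436% higher and 0.368% lower with FTY720). In RNA of whole tissue, a difference in the number of such cells and a difference in RNA per cell cannot be told apart.

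**Figure D2:**
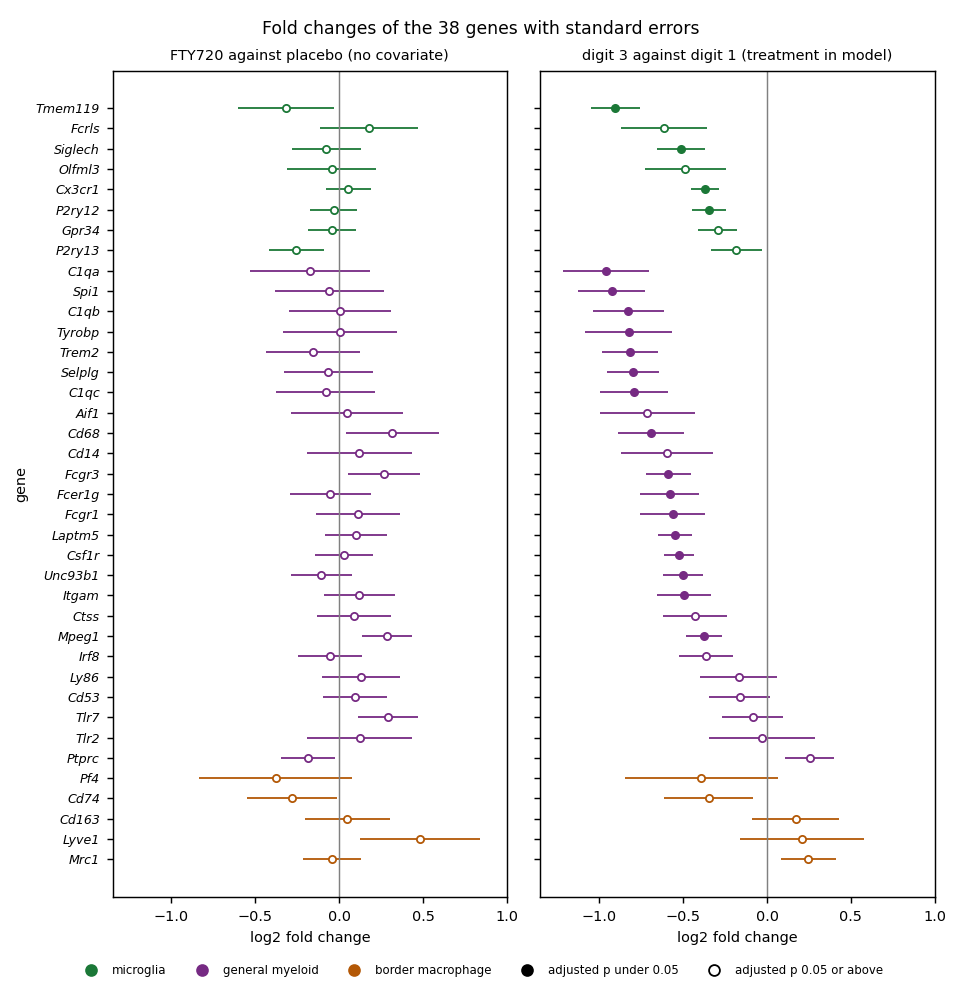
Log2 fold change of each of the 38 genes (points, with the standard error as a bar) for FTY720 over placebo on the left and for digit 3 over digit 1 on the right, coloured by set. Filled points have an adjusted p under 0.05, which holds for 0 genes on the left and for 20 on the right, all of them left of 0.

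The microglia set had a median log2 fold change of -0.04 for FTY720 over placebo, with single genes between -0.32 (Tmem119) and 0.18 (Fcrls). P2ry12, the purine receptor by which microglia sense injured cells, was at 24.8 to 39.5 CPM with a median of 31.2 with FTY720, and at 31.2, 31.5, 32.2 and 37.1 CPM with placebo. The FTY720 values ran from below to above all placebo values, and the log2 fold change was -0.03 (standard error, SE, 0.141, unadjusted p = 0.821). Tmem119, a membrane protein found on microglia and not on most other macrophages, spanned 8.59 to 23.9 CPM (median 15.7) with FTY720 and lay at 15.9, 19.2, 19.8 and 26.5 CPM with placebo.

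The 3 lowest Tmem119 values were all FTY720 mice with the digit 3, and the other FTY720 mice lay among the placebo values. The log2 fold change was -0.32 (SE 0.285, unadjusted p = 0.286). P2ry13, another receptor for adenine nucleotides, had the smallest p of the set, with 5.93 to 9.50 CPM (median 8.64) under FTY720 and 8.02, 9.41, 10.6 and 11.9 CPM under placebo. Only F3-612 lay below the placebo range, 2 placebo mice lay above the FTY720 range, and the log2 fold change was -0.26 (SE 0.164, unadjusted p = 0.142).

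Cx3cr1, the receptor for the neuronal chemokine fractalkine, was at 39.5 to 57.2 CPM (median 47.6) with FTY720 and at 40.9, 43.1, 43.5 and 56.4 CPM with placebo. The groups covered nearly the same range, with a log2 fold change of 0.06 (SE 0.134). Gpr34, a receptor for lysophosphatidylserine, and the lectin Siglech had log2 fold changes of -0.04 and -0.08. Olfml3, a secreted protein typical of microglia, had -0.05.

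In the general myeloid set the median was 0.05, and the smallest p of the 38 members belonged to Mpeg1, which encodes the pore-forming protein perforin-2 of phagocytes. Mpeg1 was at 29.4 to 49.2 CPM (median 36.7) with FTY720 and at 30.01, 30.3, 31.6 and 32.8 CPM with placebo. The 3 highest values were the FTY720 mice with the digit 1, at 40.7, 43.8 and 49.2 CPM, and the 3 FTY720 mice with the digit 3 overlapped the placebo group. The log2 fold change was 0.28 (SE 0.149, unadjusted p = 0.0803 and adjusted p = 0.999918 by edgeR). Without the mouse F3-908 it was 0.35 and passed an unadjusted p of 0.05, the 1 such call among the fits that left out a mouse without a digit term.

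Tlr7, an endosomal receptor for single-stranded RNA, came next in p. It was at 3.19 to 4.74 CPM (median 3.73) with FTY720 and at 2.79, 2.88, 3.25 and 3.58 CPM with placebo, with a log2 fold change of 0.29 (SE 0.18, unadjusted p = 0.132). Its highest values were again 2 FTY720 mice with the digit 1, F1-624 and F1-918. Csf1r, the growth factor receptor on which microglia depend, was at 65.3 to 115 CPM (median 84.3) and at 78.1, 78.2, 82.0 and 102 CPM, a log2 fold change of 0.03 (SE 0.172). FTY720 mice stood both below and above all placebo mice.

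The complement chain C1qa, which tags synapses and debris for removal, was at 18.8 to 74.7 CPM (median 39.8) with FTY720 and at 28.6, 48.8, 62.0 and 64.0 CPM with placebo, a log2 fold change of -0.18 (SE 0.357). Trem2, a lipid-sensing receptor that signals through Tyrobp, was at 9.54 to 25.3 CPM (median 14.2) and at 11.8, 15.4, 19.2 and 22.3 CPM, a log2 fold change of -0.16 (SE 0.278). Both genes spread further within the FTY720 group than the groups lay apart. Aif1, which encodes the IBA1 protein used to stain microglia, was at 2.62 to 8.29 CPM (median 3.73) and at 2.48, 3.96, 4.72 and 6.06 CPM, a log2 fold change of 0.05 (SE 0.335). Cd68, a lysosomal protein of phagocytes, was at 5.64 to 16.9 CPM (median 7.77) and at 6.28, 6.89, 6.93 and 9.43 CPM, a log2 fold change of 0.32 (SE 0.276). The top value of both, 8.29 and 16.9 CPM, came from F1-622.

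The border macrophage set had a median of -0.04. Lyve1, a hyaluronan receptor of perivascular macrophages and lymphatic vessels, was at 0.590 to 1.8 CPM (median 1.05) with FTY720 and at 0.577, 0.655, 0.891 and 1.08 CPM with placebo. The log2 fold change of 0.48 (SE 0.359, unadjusted p = 0.204) was the largest of the 38, and it rested on 10 to 31 counts per mouse. Cd74 was at 3.88 to 11.1 CPM (median 6.44) and at 6.68, 7.53, 7.74 and 11.5 CPM, a log2 fold change of -0.28 (SE 0.268, unadjusted p = 0.318). Its 2 lowest values, 3.88 and 5.14 CPM, were FTY720 mice with the digit 3.

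Mrc1, the mannose receptor, was at 4.54 to 7.39 CPM (median 5.60) with FTY720 and at 4.59, 6.06, 6.18 and 6.5 CPM with placebo, a log2 fold change of -0.04 (SE 0.174). Pf4, a platelet chemokine that border macrophages also make, was at 0.179 to 1.7 CPM (median 0.766) and at 0.808, 0.867, 1.38 and 1.49 CPM, a log2 fold change of -0.38 (SE 0.456). The FTY720 range took in the placebo values of both genes. Cd163, the scavenger receptor for haemoglobin, had a log2 fold change of 0.05 (SE 0.253).

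Larger differences went with the digit in the mouse names. With treatment in the model, 20 of the 38 were lower in the digit 3 mice with an adjusted p under 0.05 (quasi-likelihood test of edgeR, Benjamini-Hochberg over all genes), namely 4 of 8 microglia genes, 16 of 25 general myeloid genes and 0 of 5 border macrophage genes, and 0 were higher. Of all genes tested, 14.4% were lower and 13.9% higher. The fitted difference was below 0 for 34 of 38 members, the exceptions being Ptprc, Mrc1, Cd163 and Lyve1, where 50.9% of all genes were below 0 and 49.1% above. The median log2 fold change was -0.50 over the members, -0.43 for the microglia set, -0.56 for the general myeloid set and 0.17 for the border set, against -0.01 over all genes. In 8 members every digit 3 mouse lay below every digit 1 mouse (Cx3cr1, Csf1r, Fcgr3, Laptm5, Spi1, Cd68, Mpeg1 and Unc93b1), as in 6.41% of all genes, and in 0 members above it, as in 7.8%.

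The cerebellar genes moved with the digit in the opposite direction, with 13 of 13 higher in the digit 3 mice, and the forebrain genes in the same direction, with 11 of 12 lower. Both lists were chosen with earlier results of these data known. The part of regional makeup in the microglia difference was not tested. Leaving out F3-609 or F3-612 left 13 members called in each case, while 7.84% and 9.73% of all genes were then lower, and the range over all 10 mice left out in turn was 13 to 21. Within the FTY720 mice alone, 3 of each digit, 36 members passed the filter and 17 were lower with an adjusted p under 0.05, with a median of -0.57, where 9.66% of all genes were lower. Among these 17 were Fcrls (-0.98), Olfml3 (-0.79), Aif1 (-0.95) and Ctss (-0.57), which were not called in all mice. Of the 20 members called in all mice, 10 were called in each of the 10 fits with a mouse left out (Tmem119, C1qb, C1qc, Csf1r, Trem2, Fcgr3, Selplg, Laptm5, Spi1 and Unc93b1). The call was lost without P1-623 for Cx3cr1 (-0.35) and Siglech (-0.43), which were not called in the FTY720 mice alone either, without F3-609 for C1qa (-0.78), and without F3-609 or F3-612 for Mpeg1 (-0.37 and -0.36). It was lost in 3 of the fits for Cd68 (without F3-609, F3-612 or P1-623), 4 for Tyrobp (without F1-622, F1-918, F3-609 or F3-612), 4 for Fcer1g (without F1-622, F3-609, F3-612 or P1-623), 5 for P2ry12, 6 for Itgam and 8 for Fcgr1.

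**Figure D3:**
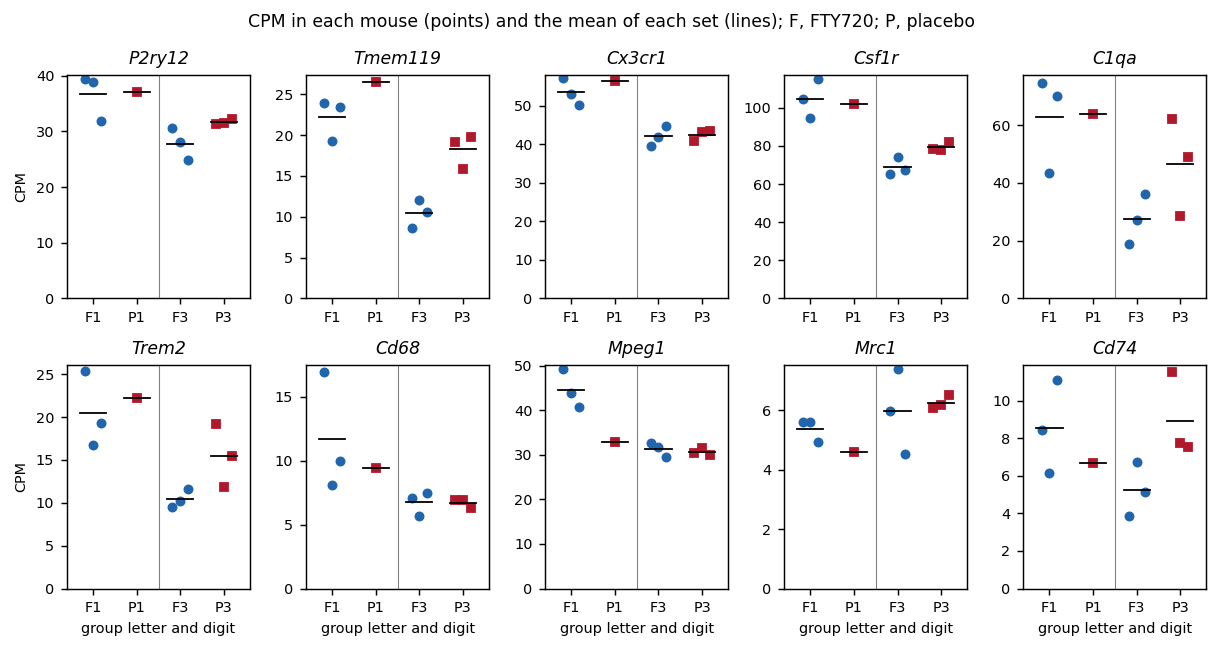
CPM of 10 genes in each mouse, with F and P for FTY720 and placebo and 1 and 3 for the digit (3 F1, 1 P1, 3 F3 and 3 P3 mice), points for mice and a line for the mean of each set. Cx3cr1, Csf1r, Cd68 and Mpeg1 separate the digits without overlap, Tmem119 is lowest in the F3 mice (8.59 to 12.1 CPM), and Mrc1 and Cd74 overlap between the digits.

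Tmem119 had the smallest p of the members. It was at 19.3, 23.4 and 23.9 CPM in the F1 mice, 26.5 in P1-623, 8.59, 10.6 and 12.1 in the F3 mice, and 15.9, 19.2 and 19.8 in the P3 mice. The 2 digits touched only between F1-624 (19.3 CPM) and P3-907 (19.8 CPM), and the log2 fold change was -0.90 (SE 0.146, adjusted p = 0.00109 by edgeR). Cx3cr1 was at 50.3, 52.9 and 57.2 CPM in the F1 mice, 56.4 in P1-623, 39.5, 41.8 and 44.8 in the F3 mice, and 40.9, 43.1 and 43.5 in the P3 mice. The digits did not overlap, with a gap from 44.8 to 50.3 CPM and a log2 fold change of -0.37 (SE 0.0835, adjusted p = 0.00731 by edgeR).

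P2ry12 had 31.8, 39.0 and 39.5 CPM in the F1 mice, 37.1 in P1-623, 24.8, 28.0 and 30.5 in the F3 mice and 31.2, 31.5 and 32.2 in the P3 mice. F1-918, at 31.8 CPM, lay within the digit 3 range and the other 3 digit 1 mice above it, and the log2 fold change was -0.35 (SE 0.102, adjusted p = 0.0243 by edgeR). This call was lost in 5 of the 10 fits with a mouse left out (F1-622, F1-624, F3-612, F3-908 or P1-623, at -0.41 to -0.29) and in the FTY720 mice alone (-0.38, adjusted p = 0.0813 by edgeR), while the value was -0.59 with library trends on GC content and length taken out. Siglech was the remaining microglia gene called, with a log2 fold change of -0.51 and an adjusted p of 0.0185. Gpr34 (-0.29), Fcrls (-0.61), Olfml3 (-0.49) and P2ry13 (-0.18) had adjusted p-values of 0.076, 0.0892, 0.142 and 0.39. P2ry13 was at 8.37, 8.45 and 9.02 CPM in the F1 mice, 11.9 in P1-623, 5.93, 8.82 and 9.50 in the F3 mice and 8.02, 9.41 and 10.6 in the P3 mice. The digits overlapped between 8.37 and 10.6 CPM.

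Among the general myeloid genes, Csf1r was at 94.5, 104 and 115 CPM in the F1 mice, 102 in P1-623, 65.3, 67.2 and 74.0 in the F3 mice and 78.1, 78.2 and 82.0 in the P3 mice. Every digit 3 mouse was below every digit 1 mouse, and the log2 fold change was -0.52 (SE 0.0897, adjusted p = 0.00157 by edgeR). Laptm5, a lysosomal membrane protein of blood cells, was at 32.5, 36.3 and 41.6 CPM in the F1 mice, 36.3 in P1-623, 22.8, 23.7 and 27.1 in the F3 mice and 24.9, 25.5 and 27.8 in the P3 mice. Here too the digits did not overlap, with a log2 fold change of -0.55 (SE 0.102, adjusted p = 0.00265 by edgeR).

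The complement chains, Trem2 with its adaptor Tyrobp, and Spi1, which encodes the transcription factor PU.1, a regulator of myeloid fate, were also lower. C1qa was at 43.3, 70.0 and 74.7 CPM in the F1 mice, 64.0 in P1-623, 18.8, 27.1 and 36.3 in the F3 mice and 28.6, 48.8 and 62.0 in the P3 mice. P3-612 (62.0 CPM) and P3-907 (48.8 CPM) lay inside the digit 1 range, and the log2 fold change was -0.96 (SE 0.255, adjusted p = 0.0157 by edgeR). C1qb and C1qc, the other 2 chains of the same complex, had log2 fold changes of -0.83 and -0.79. Spi1 had -0.93 and Tyrobp -0.82.

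Trem2 was at 16.7, 19.2 and 25.3 CPM in the F1 mice, 22.3 in P1-623, 9.54, 10.2 and 11.6 in the F3 mice and 11.8, 15.4 and 19.2 in the P3 mice. Only P3-612 reached the digit 1 range, and the log2 fold change was -0.82 (SE 0.168, adjusted p = 0.00447 by edgeR). Cd68 was at 8.08, 10.01 and 16.9 CPM in the F1 mice, 9.43 in P1-623, 5.64, 7.09 and 7.47 in the F3 mice and 6.28, 6.89 and 6.93 in the P3 mice. The digits did not overlap, with a log2 fold change of -0.69 (SE 0.197, adjusted p = 0.0211 by edgeR). Mpeg1, at 29.4 to 32.7 CPM in all digit 3 mice and 32.8 in P1-623, was separated by the narrowest of margins there, and its log2 fold change of -0.38 (SE 0.106, adjusted p = 0.0195 by edgeR) rested on the F1 mice at 40.7 to 49.2 CPM.

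The remaining general myeloid genes called were the adhesion ligand Selplg (-0.80), the Fc receptors Fcgr3 (-0.59) and Fcgr1 (-0.56) with their signalling chain Fcer1g (-0.58), the integrin chain Itgam (-0.50) and Unc93b1 (-0.50), which carries Toll-like receptors to endosomes. Fcgr1 was the nearest to the threshold, with an adjusted p of 0.0476 by edgeR. The Fc receptors belong to a gene family of like sequence, so reads shared between its members could shift their values. Aif1 was at 4.25, 5.22 and 8.29 CPM in the F1 mice, 4.72 in P1-623, 2.62, 3.17 and 3.22 in the F3 mice and 2.48, 3.96 and 6.06 in the P3 mice, with a log2 fold change of -0.71 (SE 0.281) and an adjusted p of 0.0738 by edgeR. P3-612 lay above 3 of the 4 digit 1 mice.

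The 8 other general myeloid genes that were not called had adjusted p-values between 0.107 and 0.956. Ctss (-0.43), the transcription factor Irf8 (-0.36) and the lipopolysaccharide receptor Cd14 (-0.60) stood nearest to a call. The tetraspanin Cd53, Ly86 and the receptors Tlr2 and Tlr7 had log2 fold changes between -0.17 and -0.03, and Ptprc had 0.25. Tlr7 was at 3.19, 4.30 and 4.74 CPM in the F1 mice, 2.88 in P1-623, 3.26, 3.70 and 3.77 in the F3 mice and 2.79, 3.25 and 3.58 in the P3 mice, so that the digits overlapped.

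The border macrophage genes gave 0 calls for the digit in all mice, also at an unadjusted p under 0.05 and with DESeq2 or limma. With mice left out, Cd74 was lower at an unadjusted p under 0.05 in the FTY720 mice alone (-0.68, unadjusted p = 0.0235) and without P1-623 (-0.70), Mrc1 was higher without F3-908 (0.36), and 0 of the 5 had an adjusted p under 0.05 in any of these fits by edgeR. Mrc1 was at 4.92, 5.60 and 5.60 CPM in the F1 mice, 4.59 in P1-623, 4.54, 5.96 and 7.39 in the F3 mice and 6.06, 6.18 and 6.5 in the P3 mice. Apart from F3-908, at 4.54 CPM the lowest of all, the digit 3 mice lay above the digit 1 mice, and the log2 fold change was 0.25 (SE 0.163, adjusted p = 0.274 by edgeR). Cd74 was at 6.13, 8.44 and 11.1 CPM in the F1 mice, 6.68 in P1-623, 3.88, 5.14 and 6.75 in the F3 mice and 7.53, 7.74 and 11.5 in the P3 mice, a log2 fold change of -0.35 (SE 0.264, adjusted p = 0.339 by edgeR). The digit 3 mice covered the whole range of the digit 1 mice.

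Pf4 was at 0.648, 0.659 and 1.7 CPM in the F1 mice, 1.38 in P1-623, 0.179, 0.872 and 1.20 in the F3 mice and 0.808, 0.867 and 1.49 in the P3 mice. Lyve1 was at 0.590, 1.13 and 1.5 CPM in the F1 mice, 0.655 in P1-623, 0.775, 0.956 and 1.8 in the F3 mice and 0.577, 0.891 and 1.08 in the P3 mice. Both overlapped between the digits, with log2 fold changes of -0.39 (SE 0.455) and 0.21 (SE 0.369). Cd163 had 0.17 (SE 0.257). The difference between the border set and the microglia set in the size of the digit effect was not tested. The standard errors were 0.163 to 0.455 for the border genes and 0.0835 to 0.256 for the microglia genes, ranges that overlapped.

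FTY720 and placebo were also compared with the digit held apart. With the digit as a covariate, 3 of 38 members were lower with FTY720 at an unadjusted p under 0.05 and 0 were higher, that is 7.89% of the members, while 7.79% of all genes were lower and 4.98% higher. The members called were Tmem119 (log2 fold change -0.62, SE 0.147, unadjusted p = 0.000977, adjusted p = 0.354 by edgeR), Trem2 (-0.42, unadjusted p = 0.0277) and Selplg (-0.33, unadjusted p = 0.0496). The share called was near that of all genes, and 0 genes had an adjusted p under 0.05. The fitted value was below 0 for 28 of 38 members, 8 of 8 in the microglia set, with a median of -0.12 against -0.0074 over all genes. With 1 digit 3 mouse left out, 23 (without F3-609) to 30 (without F3-612) were below 0. Leaving out 1 digit 3 mouse at a time moved the number called between 1 (without F3-609 or P3-612) and 6 (without P3-904), with 2 without F3-612 or P3-907 and 5 without F3-908. The share of all genes that were lower moved too, to 3.74% without F3-609, 5.5% without F3-612, 9.91% without F3-908, 4.43% without P3-612, 11.5% without P3-904 and 4.51% without P3-907. Tmem119 was among the members called each time. Its difference was smaller, at -0.17 (SE 0.183), without a digit term and with library trends on GC content and length taken out. In that fit 13 of 38 members were below 0. A fit with both this correction and a digit term was not run, so the size of the Tmem119 difference under both was not tested.

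**Figure D4:**
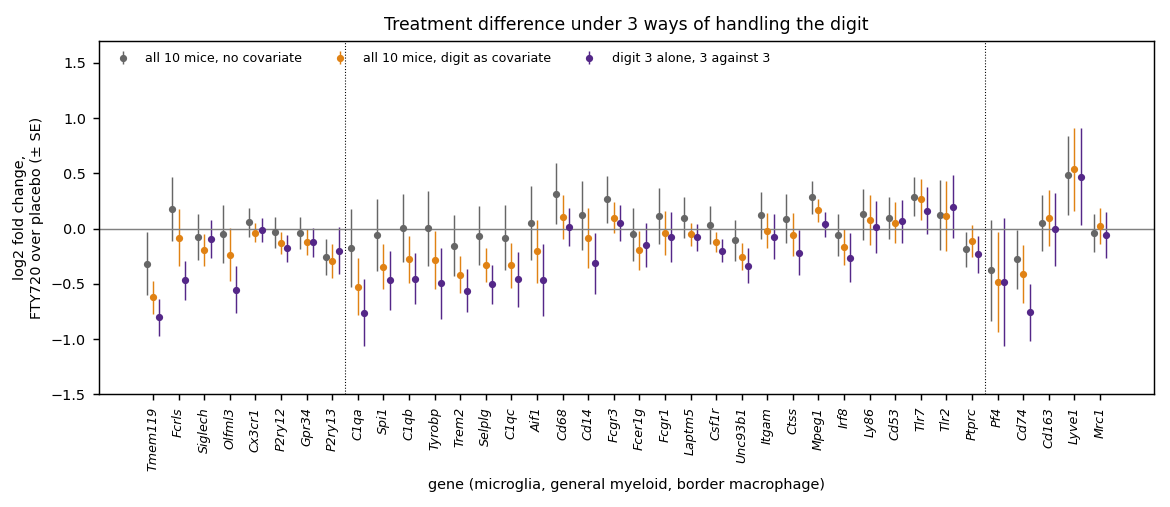
Log2 fold change of the 38 genes (points, with the standard error as a bar) for FTY720 over placebo in all 10 mice without a covariate, in all 10 mice with a digit term, and in the 6 digit 3 mice alone. Tmem119, at the left, goes from -0.32 through -0.62 to -0.80, and the number of genes with a fitted value below 0 from 18 through 28 to 30 of 38. The median over all genes was -0.0030, -0.0074 and -0.0049 in these 3 fits. In the digit 1 mice alone, which are not drawn and hold 1 placebo mouse, 14 of 38 were below 0 and Tmem119 was at -0.25. Also not drawn is the fit without a covariate after library trends on GC content and length were taken out. There 13 of 38 were below 0 and Tmem119 was at -0.17.

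In the 6 digit 3 mice alone, 3 of each group, 7 members were lower with FTY720 at an unadjusted p under 0.05 and 0 were higher, against 4.49% lower and 2.78% higher among all genes. They were Tmem119 (log2 fold change -0.80, unadjusted p = 0.00105), Olfml3 (-0.55), Fcrls (-0.47), C1qa (-0.76), Trem2 (-0.56), Selplg (-0.51) and Cd74 (-0.76), each with an adjusted p of 0.654 by edgeR. Every FTY720 value lay below every placebo value in 10 members (P2ry12, Gpr34, Tmem119, Fcrls, Csf1r, Trem2, Ptprc, Selplg, Unc93b1 and Cd74), as in 6.53% of all genes, and above in 0, as in 6.41%. Tmem119 had 8.59 to 12.1 CPM in the F3 mice against 15.9 to 19.8 in the P3 mice. Cd74 had 3.88 to 6.75 CPM against 7.53 to 11.5, and P2ry12 24.8 to 30.5 CPM against 31.2 to 32.2.

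Fcrls, an Fc receptor-like scavenger protein of microglia, is given here because of its values. It was at 22.3, 35.5 and 45.6 CPM in the F1 mice against 19.6 in P1-623, and at 13.7, 17.4 and 20.6 CPM in the F3 mice against 20.7, 25.2 and 25.8 in the P3 mice. The FTY720 mice thus lay above the single placebo mouse of the digit 1 and, in the digit 3, below all placebo mice. Over all 38 members a term for the difference between the digits in the treatment effect had an unadjusted p under 0.05 in 3, where 1.95% of all genes did, and an adjusted p under 0.05 in 0 by edgeR. With 1 placebo mouse of the digit 1, that term rests on P1-623, whose spread was assumed to be that of the other mice.

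The mice of a group differed from one another. The median deviation of the members, in log2 CPM from the mean of each gene, had a standard deviation between mice of 0.305 within treatment and 0.194 within treatment and digit. F1-622 was the highest of the 10 in 27 of 38 members (71.1%), where it was the highest in 18.8% of all genes, and F3-609 was the lowest in 16, where it was the lowest in 18.4% of all genes. The median deviation was 0.60 in F1-622, 0.30 in F1-918 and 0.23 in P1-623, and -0.35 in F3-609, -0.22 in F3-612 and -0.19 in F3-908. F1-624, the fourth digit 1 mouse, stood at 0.04 and the placebo mouse P3-612 at 0.12. F1-622 was also the mouse with the neutrophil genes above, and neutrophils too express Fcer1g, Tlr2 and Cd14. The part of neutrophils in the high values of F1-622 was not tested. The direction of the treatment median over the members depended on the mouse left out. Over the 10 mice left out in turn, this median ran from -0.12 without F1-622, with 29 of 38 below 0, to 0.11 without P1-623, with 12 of 38. The fewest below 0 were 11, without F3-908. Without F1-622, 15 members were lower in the digit 3 mice, where 12.3% of all genes were.

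The 13 members shorter than 2000 bases moved further than the longer ones in F1-622, P3-612, F3-609, F3-612 and P3-904, though not in F1-624, F3-908 or P1-623. In F1-622 their median deviation was 0.78, against 0.39 for the 25 longer members, and in F3-612 it was -0.49 against -0.18. Short genes as a whole moved the same way in these libraries, at 0.24 against -0.03 in F1-622 and -0.19 against 0.03 in F3-612. After removal of the trends of each library on GC content and on gene length, 16 members were still lower in the digit 3 mice (5 microglia genes, now with Gpr34, and 11 general myeloid genes), where 12.1% of all genes were. Cd68, Tyrobp, Fcer1g, Fcgr1 and Unc93b1 were no longer called. The median of the members went from -0.50 to -0.37 and that of the general myeloid set from -0.56 to -0.38, while the microglia set went from -0.43 to -0.52 and the border set from 0.17 to 0.04. Of the 20 members called before, 10 came down by more than 1.5 times, among them C1qa to -0.47 (from -0.96), C1qb to -0.40 (from -0.83), C1qc to -0.43 (from -0.79), Spi1 to -0.56 (from -0.93), Tmem119 to -0.51 (from -0.90) and Laptm5 to -0.30 (from -0.55, adjusted p = 0.0497 by edgeR). The other 4 were Cd68, Tyrobp, Fcer1g and Unc93b1, and P2ry12 was the 1 that grew by as much.

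The spread between mice of the same treatment and digit, as a biological coefficient of variation, was 10.2% for Cx3cr1, 10.8% for Csf1r and 11.7% for P2ry12, below the 15.8% of the median gene. Tmem119 had 15.5%, C1qa 26.4%, Tyrobp 26.5% and Aif1 27.7%. Pf4 had the widest, at 40.2%. Cx3cr1, Csf1r and P2ry12 thus varied less between like mice than the complement chains or Aif1.

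After the means of treatment and digit had been removed, the 3 C1q chains rose and fell together across the 10 mice, with a median Pearson correlation of 0.951 between them. With the other 22 general myeloid genes the chains had a median of 0.641 over 66 pairs (-0.446 to 0.978), with the microglia genes 0.254 over 24 pairs (-0.603 to 0.816) and with the border genes 0.51 over 15 pairs (-0.72 to 0.768). Within the sets the median was 0.052 for the microglia genes (28 pairs, -0.585 to 0.938), 0.5 for the general myeloid genes (300 pairs) and 0.284 for the border genes (10 pairs), and over all 703 pairs of members it was 0.357. Apart from the C1q chains, pairs in every set thus ranged from below to above 0. These are descriptions over 10 libraries, in which genes share the library, its depth and, for the C1q chains and Tyrobp, a short transcript.

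The C1q chains lie side by side on chromosome 4 (GRCm38), with C1qb at chr4:136880129-136886187, C1qc at chr4:136889804-136893065 and C1qa at chr4:136895917-136898803, all on the minus strand. P2ry13 (chr3:59207892-59210882) and P2ry12 (chr3:59216272-59262871) are neighbours on the minus strand of chromosome 3, and both lie within Med12l on the plus strand, which had a median of 546 counts. Gpr34 lies within Cask on the opposite strand, and the annotated span of Cx3cr1 (chr9:119901616-120069879) takes in Wdr48, Gorasp1 and other genes. In all, 12 members overlap another annotated gene and 7 of them a protein-coding one. Whether the counting used the strand is not given in the sources used here, so values of these genes are uncertain to that extent.

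Promoter sequence was at hand for 26 of the 38 members, from RefSeq on GRCm38.p6, as 250 bases before and 50 after the start of each gene. Members without an entry were Gpr34, Tmem119, C1qa, Csf1r, Tyrobp, Selplg, Spi1, Unc93b1, Cd14, Tlr7, Lyve1 and Cd74. The word GAGGAAGT, a known form of the site of PU.1, was searched on both strands, since Spi1 was itself among the members that were lower in the digit 3 mice. It occurred in 4 of the 26 (15.4%) and in 3.69% of 27025 genes with an entry. The 4 stretches are given 5′ to 3′ on the strand of the gene, with the reverse complement of the word in capitals, at chr3:95526758-95526810 for Ctss, chr3:106790125-106790169 for Cd53, chr4:136893076-136893135 for C1qc and chr5:90772399-90772458 for Pf4.
Ctss: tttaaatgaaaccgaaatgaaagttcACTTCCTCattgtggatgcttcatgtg
Cd53: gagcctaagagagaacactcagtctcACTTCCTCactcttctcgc
C1qc: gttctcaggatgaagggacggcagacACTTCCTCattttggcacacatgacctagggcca
Pf4: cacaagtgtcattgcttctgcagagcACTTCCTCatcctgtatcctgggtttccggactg
All 4 carry the word on the strand opposite to the gene. Of these 4 genes 1 was lower in the digit 3 mice (C1qc), and of the 22 without the word 12 were. The matches describe the letters in these windows only.

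Other gene lists were set beside the 38. Of 29 further microglia genes 0 were called for treatment (2.61% of all genes were) and 10 were lower and 0 higher in the digit 3 mice (14.4% and 13.9% of all genes), with a median log2 fold change of -0.30. Susd3, Hcls1, a signalling protein of blood cells, and Vsir, an immune checkpoint receptor, had the smallest p, with -1.19 (adjusted p = 0.00615), -0.80 (adjusted p = 0.0101) and -0.48 (adjusted p = 0.011 by edgeR). Of 11 further border macrophage genes tested, 0 were called for the digit. Cp, which encodes the ferroxidase ceruloplasmin and is also made by astrocytes and choroid plexus, was higher with FTY720, with a log2 fold change of 0.39 (unadjusted p = 0.0376). It was the 1 gene of these 11 called for treatment, where 1.04% of all genes were higher and 1.57% lower.

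Of 8 ligands of the microglial receptors, which other brain cells make, 3 were lower and 1 higher in the digit 3 mice, where 14.4% of all genes were lower and 13.9% higher, and 0 were called for treatment. Il34 and Cx3cl1, the neuronal ligands of Csf1r and Cx3cr1, were lower in the digit 3 mice, with log2 fold changes of -0.50 (adjusted p = 0.00684) and -0.54 (adjusted p = 0.00993 by edgeR). Il34 was at 43.6 to 54.4 CPM in the digit 1 mice and 27.7 to 38.7 in the digit 3 mice. Apoe, a ligand of Trem2 made mainly by astrocytes, had -1.18 (adjusted p = 0.000856 by edgeR).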

How the data were processed

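Brain RNA of 10 mice was measured by RNA-seq. The authors deposited whole-number counts per gene, without normalization, and FPKM values per gene and mouse. The submitters' processing notes name CASAVA 1.8, fastp, HISAT2 2.0.5, featureCounts 1.5.0-p3 and DESeq2 1.20.0 with GRCm38/mm10; the NEBNext Ultra kit does not mark strand by itself, and the strand setting is not given in the sources used here. The mice were grouped by the treatment label, and the digit was read from the mouse name. Littermates were used, but which mouse came from which litter is not given, so p-values cover the spread between these mice.

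Genes were kept by filterByExpr (17665 genes), scaled with TMM factors and compared by the quasi-likelihood test of edgeR 4.0.16 in R 4.3.3, without a covariate for treatment and with treatment in the model for the digit. CPM use TMM-scaled library sizes. Benjamini-Hochberg adjustment ran over all genes tested, and the standard error is the log2 fold change over the square root of F. Treatment calls use the study's unadjusted p of 0.05, here without its restriction to protein-coding genes, digit calls an adjusted p of 0.05. Deviations and correlations use log2 CPM with a prior count of 2. Depth was 14772745 to 18303981 counts per mouse, and no pair of the 45 agreed within sampling noise (chi-square per degree of freedom at least 16.1 over 5000 genes).

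The members and all lists were chosen with earlier results of these data known. Mouse-by-mouse values were given for P2ry12, Tmem119, Cx3cr1, Csf1r, Aif1, Cd68, C1qa, Trem2, Mrc1, Pf4, Cd74 and Lyve1, and for the 2 members with the smallest p of each set in each comparison; genes of other lists were named only if among the 3 smallest p of their list and past the call rule, while Fcrls was given by mouse, and S100a8, S100a9 and Ngp were named, after their values were seen. Alternatives were RLE and upper-quartile scaling, no filter, at least 10 counts in every mouse, the Wald test of DESeq2 1.42.0, limma 3.58.1 on log2(FPKM + 0.1) and log2(FPKM + 1), each mouse left out, the digit or the leading digit of the mouse number (6 or 9) as a covariate, each digit alone and, for the digit, no treatment term or FTY720 mice alone. The tests were tried on simulated data.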

Additional observations from a re-analysis of the deposited data

Results flagged for a closer look

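Each of the 38 genes was examined for a mouse standing far from the rest of its treatment group, which makes 76 groups. In 6 of them 1 mouse lay apart by Dixon's criterion at 95%, where chance alone flags about 1 in 20 groups. In the placebo group P1-623, the only placebo mouse with the digit 1, was high in 3 genes called lower in the digit 3 mice. It had 37.1 CPM of P2ry12 (31.2 to 32.2 in the other placebo mice), 56.4 CPM of Cx3cr1 (40.9 to 43.5) and 102 CPM of Csf1r (78.1 to 82.0). In the FTY720 group F1-622 was high in Fcer1g, at 13.8 CPM (6.69 to 8.33 in the other FTY720 mice), and in Cd53, at 11.8 CPM (6.36 to 7.99). The same mouse had the highest sum of the monocyte and neutrophil list, 36.1 CPM. F3-612 was low in P2ry13, at 5.93 CPM (8.37 to 9.50).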

How the results depend on the processing

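The number of members called for treatment stayed at 0 under both scalings, both filters, DESeq2, limma on both FPKM scales, the leading digit of the mouse number, and removal of the trends on GC content and on gene length, the last chosen after seeing the data. It became 3 with a digit covariate, 7 in the digit 3 mice alone and 1 in the digit 1 mice alone (Fcrls, higher), where the placebo arm is the mouse P1-623 alone, assumed to vary like the FTY720 mice. The log2 fold change of Fcrls turned from 0.18 to -0.47 in the digit 3 mice alone. Leaving out each mouse gave 0 to 1 members without a digit term, and with it (chosen after seeing the data) 1 without F3-609 or P3-612, 2 without F3-612 or P3-907, 5 without F3-908 and 6 without P3-904. Over all genes, 461 passed for treatment, and 1117 without a filter, 2256 with a digit covariate and 1283 in the digit 3 mice alone; leaving out a mouse gave 281 (P3-907) to 984 (P3-904), with 300 without P3-612, and with the digit term 1042, 1641 and 2809 without F3-609, F3-612 and F3-908 and 1356, 3702 and 1293 without P3-612, P3-904 and P3-907. For the digit, 13 to 21 members were called with a mouse left out (20 with all) and 2593 (without P1-623) to 6046 genes (5010 with all), with 2908 without F3-609, and 2913 in the FTY720 mice alone. The cause of these moves was not tested. Members called for the digit were 16 to 24 under the other settings, and the median of the members kept its sign for the digit throughout. No paired analysis was possible because the FTY720 and placebo mice share only 1 mouse number (612). Genes with few counts, such as Pf4 and Lyve1, limit what can be said of border macrophages.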

Other observations

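Of the 23 tested genes of a list of activated microglia, 6 were lower and 1 higher in the digit 3 mice, where 14.4% of all genes were lower and 13.9% higher. Lpl, the lipoprotein lipase of lipid-laden microglia and of some neurons, was at 33.2 to 44.7 CPM in the digit 1 mice and 19.3 to 25.4 CPM in the digit 3 mice, a log2 fold change of -0.74 (adjusted p = 0.000826 by edgeR). Spp1, which encodes osteopontin and is also expressed by neurons of the hindbrain, went the other way, from 23.1 to 43.8 CPM with the digit 1 to 43.5 to 76.0 CPM with the digit 3, a log2 fold change of 1.09 (adjusted p = 0.00223 by edgeR). Gpnmb, a glycoprotein of lipid-laden phagocytes, was the 1 gene of these 23 called for treatment, where 2.61% of all genes were (1.04% higher). It was at 6.81 to 9.02 CPM with FTY720 and 4.27 to 6.83 CPM with placebo, overlapping by the thinnest margin between F3-908 and P3-907, with a log2 fold change of 0.42 (unadjusted p = 0.0239, adjusted p = 0.999918 by edgeR).

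Among 11 partners of C1q in the complement cascade, C4b was higher with FTY720 (log2 fold change 0.43, unadjusted p = 0.0494) and lower in the digit 3 mice (-0.58, adjusted p = 0.00252 by edgeR). It was at 86.1 to 116 CPM in the F1 mice, 79.9 in P1-623, 58.0 to 75.5 in the F3 mice and 52.4 to 58.7 in the P3 mice. C4b was the 1 gene of the 11 called for treatment, where 1.04% of all genes were higher. In the digit 3 mice 1 of the 11 was lower and 1 higher, where 14.4% and 13.9% of all genes were. Ccr2, a receptor of monocytes, was higher in the digit 3 mice (1.56, adjusted p = 0.0286 by edgeR) at 0.407 to 1.19 CPM, against 0.0590 to 0.393 CPM with the digit 1. Of the 11 monocyte and neutrophil genes 3 were tested and 1 was higher, where 13.9% of all genes were. The Ccr2 values lay within or below those of Pf4 (0.179 to 1.7 CPM, 3 to 25 counts), so the call rests on few counts. Of the oligodendrocyte list Mag, Cnp and Mbp were lower with FTY720 (3 of 7, log2 fold changes -0.46, -0.35 and -0.29, unadjusted p under 0.05, as in 1.57% of all genes), and of the endothelial list Ly6c1, Pecam1 and Slco1a4 were higher (3 of 7, log2 fold changes 0.46, 0.43 and 0.61, unadjusted p under 0.05, as higher in 1.04% of all genes). After adjustment 0 genes were called for treatment by edgeR. The 7 genes of the astrocyte list and the 7 of the neuron list had 0 calls for treatment.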
